A study of Mus musculus with 45 samples.

Results

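Zbtb16 encodes a BTB zinc finger protein, also called promyelocytic leukaemia zinc finger, and is described here as 1 of 36172 genes listed for each of 3 neural tissues. It was taken by its symbol from the cortex, hippocampus and retina tables, after earlier results of the same data had shown lower levels with tamoxifen in all 3 tissues. Its tamoxifen difference is therefore given as a description without a test. Sex, tissue and the animal of origin played no part in that choice, and tests are given for those.

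The BTB domain pairs Zbtb16 molecules and recruits corepressors and histone deacetylases, and the zinc fingers bind DNA, so the protein acts mainly as a repressor of transcription. It is known as a fusion partner of the retinoic acid receptor alpha in human leukaemia, as a factor that sets the innate-like programme of natural killer T cells, and as a factor for the upkeep of spermatogonial stem cells. Its transcription is raised by glucocorticoids in many cell types, and in the developing nervous system it marks early neural progenitors.

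RNA was sequenced from mice aged 3 months. The groups were females given tamoxifen, females given the sunflower oil vehicle, males given tamoxifen and males given vehicle, and no group was left untreated. Tamoxifen is a modulator of oestrogen receptors used in mice to activate inducible forms of Cre recombinase, and the title of the series names that use. The sources used here do not give the strain, the genotype, the dose or the interval from dosing to tissue collection. The same animals gave all 3 tissues, so each animal number stands for up to 3 libraries.

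In females, each tissue had 4 tamoxifen and 3 vehicle libraries. In males, the cortex had 3 tamoxifen and 4 vehicle libraries, the hippocampus 4 and 3, and the retina 4 and 4. Total counts lay between 10259768 and 22375163 for cortex libraries, between 31154309 and 44153244 for the hippocampus and between 9143811 and 18253874 for the retina. The cortex of tamoxifen male 962 gave 4567 counts, with 0 for Zbtb16, and was left out. The summed rod photoreceptor markers reached 51830 to 60590 CPM (counts scaled to a common library total) in the retina and at most 93.1 CPM in the brain tissues, as their labels say. Some libraries held markers of a neighbouring tissue: choroid plexus markers were over 3 times the tissue median in cortex animals 958, 960 and 965 and hippocampus animals 951, 958 and 962, and lens markers in retina animals 951, 959 and 962. By the same measure pigment epithelium markers were high in retina animals 960 (811 CPM) and 966 (658 CPM), in cortex animal 960 and in hippocampus animals 951 and 958, and rod markers in cortex animals 952 and 953.

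The deposited tables place Zbtb16 (gene ID 235320) on the minus strand of chromosome 9, from 48654297 to 48835945 on GRCm38 (mm10). The GENCODE vM21 annotation of that build gives 2 transcripts of 7 exons each. Zbtb16-201 is 5114 bases long and Zbtb16-202 is 2505 bases long. They differ in their first exon, of 158 and 169 bases, and in the length of the last exon, of 3075 and 455 bases. Both carry the same coding sequence of 2022 bases with its stop codon, which starts in exon 2 and encodes 673 residues. One value per gene was deposited, so the transcripts cannot be told apart in what follows.

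The coding sequence holds 9 zinc fingers of the pattern C-X2-C-X12-H-X3-H, between residues 406 and 652. They run from exon 2 to exon 7, and finger 1 is split between exons 2 and 3. Fingers 2, 3 and 9 are shown as examples of the 9, all of which lie in the coding sequence that both transcripts share. They are read from the reference genome 5′ to 3′ on the gene's strand, with the codons of the zinc-binding cysteines and histidines in capitals. Finger 2 is at chr9:48743468-48743530 in exon 3, finger 3 at chr9:48717287-48717349 in exon 4 and finger 9 at chr9:48657208-48657270 in exon 7.
Finger 2: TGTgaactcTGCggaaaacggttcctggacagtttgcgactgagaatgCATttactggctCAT
Finger 3: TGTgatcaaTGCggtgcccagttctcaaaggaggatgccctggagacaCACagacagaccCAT
Finger 9: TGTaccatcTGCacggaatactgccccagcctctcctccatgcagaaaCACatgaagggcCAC

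Levels are given as CPM, counts scaled to the TMM-adjusted library total. In the cortex Zbtb16 was at 56.6, 58.8 and 64.7 CPM in vehicle females 955, 957 and 958. Tamoxifen females 951, 952, 953 and 954 were at 34.5, 39.3, 38.1 and 33.8 CPM. All 4 tamoxifen females thus lay below the lowest vehicle female. Vehicle males 963, 964, 965 and 966 were at 76.0, 71.2, 62.4 and 69.5 CPM, and tamoxifen males 959, 960 and 961 at 41.5, 38.9 and 36.4 CPM. The arms did not overlap in either sex, and the highest tamoxifen library of both sexes (41.5 CPM) was under the lowest vehicle library (56.6 CPM). These levels rest on 385 to 875 estimated reads per tamoxifen library and 707 to 1324 per vehicle library.

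In the hippocampus vehicle females 955, 957 and 958 were at 85.2, 103 and 93.2 CPM. Tamoxifen females 951, 952, 953 and 954 were at 63.2, 60.9, 61.4 and 61.9 CPM. This was the tightest group of all, with a coefficient of variation of 1.60%. Vehicle males 963, 964 and 966 were at 115, 90.0 and 101 CPM, and tamoxifen males 959, 960, 961 and 962 at 44.9, 77.1, 69.3 and 63.5 CPM. The tamoxifen males were the widest hippocampal group (coefficient of variation 21.5%), with animal 959 lowest and animal 960 highest. Animal 960 was still below the lowest vehicle library of the tissue, female 955 at 85.2 CPM.

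In the retina the gene was far lower. Vehicle females 955, 957 and 958 were at 8.17, 7.47 and 8.005 CPM, and tamoxifen females 951, 952, 953 and 954 at 3.53, 4.38, 2.12 and 3.12 CPM. Vehicle males 963, 964, 965 and 966 were at 10.96, 9.69, 7.87 and 13.9 CPM, and tamoxifen males 959, 960, 961 and 962 at 3.66, 4.23, 5.35 and 2.47 CPM. The highest tamoxifen library, male 961, was under the lowest vehicle library, female 957. Tamoxifen libraries held 22 to 71 estimated reads and vehicle libraries 67 to 201, so single retinal values are the least precise of the 3 tissues.

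**Figure D1:**
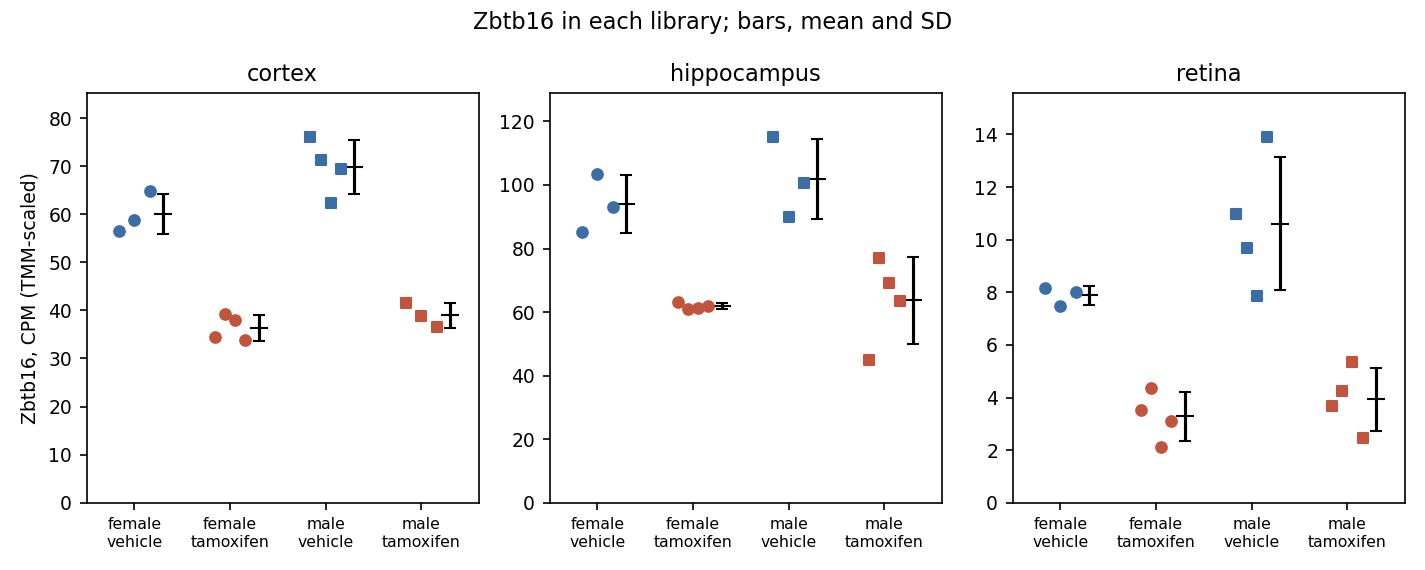
Zbtb16 level in each library (CPM on TMM-adjusted totals, linear axes from 0, a separate scale per tissue) by sex and treatment, with circles for females, squares for males and bars for mean and SD. The highest tamoxifen value is below the lowest vehicle value in each tissue: 41.5 against 56.6 CPM in the cortex, 77.1 against 85.2 in the hippocampus and 5.35 against 7.47 in the retina.

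Over the groups, the cortex mean was 60.1 ± 4.21 CPM in vehicle females (SD, n = 3) and 36.4 ± 2.69 in tamoxifen females (SD, n = 4). In cortex males it was 69.8 ± 5.64 CPM with vehicle (SD, n = 4) and 38.9 ± 2.54 with tamoxifen (SD, n = 3). Averaged over the sexes, the fitted cortex difference was -0.78 ± 0.06 on the log2 scale (SE), a level 41.8% lower with tamoxifen. The hippocampus difference was -0.64 ± 0.09 (SE), 35.8% lower. The retina difference was -1.33 ± 0.17 (SE), 60.2% lower. Tamoxifen libraries lay below every vehicle library in 7 of 7 cortex cases, 8 of 8 hippocampus cases and 8 of 8 retina cases.

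Such a separation in the lower direction was seen for 0.279% of all genes tested in the cortex, for 0.13% of hippocampal and 0.088% of retinal genes. By edgeR's quasi-likelihood test with Benjamini-Hochberg adjustment at 0.05, 0.409%, 0.0522% and 0.0338% of genes were lower with tamoxifen in the same order. As Zbtb16 was chosen from this contrast, nothing further is read from these shares. The fitted difference stayed between -0.82 and -0.75 in the cortex, between -0.69 and -0.57 in the hippocampus and between -1.42 and -1.05 in the retina under all the alternative fits tried. Without the libraries rich in choroid plexus or lens markers it was -0.78 ± 0.06, -0.65 ± 0.11 and -1.20 ± 0.18 (SE). Without libraries rich in any of the marker lists, a fit chosen after seeing the data, it was -0.82 ± 0.07 in the cortex and -1.05 ± 0.20 in the retina. That retinal fit leaves out male 966, the highest vehicle library, and keeps 1 tamoxifen male, which is assumed to vary like the other groups.

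In bulk tissue, fewer cells that express a gene and less RNA per cell cannot be told apart. The marker lists bear on this as follows. The 8 T and NK cell markers, of the lymphocytes in which Zbtb16 is best known, summed to at most 0.893 CPM in any library, and Klrb1c and Cd2 were at 0 in both retinal arms. The summed lists for neurons, astrocytes, oligodendrocytes, microglia and vessels overlapped between the arms in every tissue. Astrocyte markers, for example, ran from 4349 to 5087 CPM with tamoxifen and from 4311 to 5131 with vehicle in the cortex. Overlapping ranges can still differ in their medians. In the hippocampus the oligodendrocyte median was 3560 CPM with tamoxifen and 3140 with vehicle, and the microglia median 242 and 229. In the cortex the oligodendrocyte medians were 4419 and 4628 in the same order. Whether the cell content differed between the arms was not tested. In the retina the red cell list ran from 19.4 to 54.1 CPM with tamoxifen and from 35.9 to 120 with vehicle, and pigment epithelium markers had medians of 106 and 196 CPM. The retinal lens list ran from 1.82 to 285 CPM with tamoxifen and from 2.13 to 6.87 with vehicle. The part of red cells and pigment epithelium in the retinal difference was not tested.

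The sexes were compared next, as sex had no part in choosing the gene. Averaged over treatments, the log2 difference of males from females was 0.16 ± 0.06 in the cortex (SE, 95% interval 0.04 to 0.27), which did not pass adjustment over all genes tested (edgeR quasi-likelihood, adjusted p = 0.458). In the hippocampus it was 0.08 ± 0.09 (SE, 95% interval -0.12 to 0.28, adjusted p = 0.573), and in the retina 0.33 ± 0.17 (SE, 95% interval -0.03 to 0.69, adjusted p = 0.421). The estimates were on the male side in all 3 tissues, and the same animals gave all 3. The same contrast called 0.0817% of cortex genes, 17.7% of hippocampus genes and 0.149% of retina genes.

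The tamoxifen difference was -0.72 ± 0.08 in females and -0.84 ± 0.08 in males of the cortex (SE, log2). The hippocampus gave -0.60 ± 0.13 and -0.68 ± 0.13, and the retina -1.24 ± 0.25 and -1.42 ± 0.23. Male minus female effect was -0.12 ± 0.11 in the cortex (SE, 95% interval -0.35 to 0.12, adjusted p = 0.945 by edgeR's quasi-likelihood test). It was -0.07 ± 0.19 in the hippocampus (95% interval -0.47 to 0.32) and -0.18 ± 0.34 in the retina (95% interval -0.90 to 0.54), with unadjusted edgeR quasi-likelihood p-values of 0.694 and 0.603. A difference between the sexes was not detectable, and these intervals include differences in either direction. Without male 959 the hippocampal estimate became 0.061, and without the lens-rich libraries the retinal one became 0.14 (0.43 ± 0.40 without libraries rich in any list).

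The vehicle libraries of the 3 tissues were then scaled together to compare tissues, which the choice of the gene had not used. The hippocampus was highest at 101 ± 10.9 CPM (SD, n = 6), followed by the cortex at 66.0 ± 7.005 (SD, n = 7) and the retina at 9.07 ± 2.18 (SD, n = 7). The ranges did not overlap, at 88.6 to 118 CPM, 56.8 to 76.4 CPM and 7.20 to 13.2 CPM. The hippocampus exceeded the cortex by 0.64 ± 0.08 on the log2 scale, 1.56-fold (SE, edgeR quasi-likelihood adjusted p = 3.09e-07). The cortex exceeded the retina 7.45-fold (retina minus cortex -2.90 ± 0.10, adjusted p = 2.01e-18) and the hippocampus exceeded it 11.6-fold (-3.53 ± 0.10, adjusted p = 4.04e-20). All neighbours in the order therefore differed beyond their spread.

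Differences between tissues were common, with 58.3% of genes called between hippocampus and cortex, 83.5% between retina and cortex and 84.6% between retina and hippocampus. By size, 22.4% of genes differed more than Zbtb16 between hippocampus and cortex, 11.2% between retina and cortex and 9.22% between retina and hippocampus. The 6 vehicle animals with both brain tissues showed the same order animal by animal. On the joint scale, female 955 was at 56.8 CPM in the cortex and 88.6 in the hippocampus, and male 963 at 76.4 and 118 CPM.

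Scatter between animals of the same group differed by tissue. The standard deviation of log2 CPM around the group means was 0.106 for cortex, 0.210 for hippocampus and 0.366 for retina libraries. Counting error alone would give about 0.055, 0.028 and 0.19. The biological coefficient of variation fitted by edgeR, the scatter beyond counting, was 6.68% in the cortex and 20.2% in the retina, against medians of 6.26% and 15.998% over the 500 genes nearest in level. In the hippocampus it was 12.3% against 7.33%, and 97% of the 500 nearest genes had less scatter there. By group, the hippocampal coefficients of variation were 1.60% in tamoxifen females, 9.68% in vehicle females, 12.3% in vehicle males and 21.5% in tamoxifen males.

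Whether the level follows the animal was asked by taking each library's deviation from its tissue, sex and treatment mean (log2 CPM, prior count of 2) and pairing tissues of the same animal, with the means taken over animals that had both tissues. Cortex and hippocampus gave Pearson's r of -0.22 (n = 13 animals, exact two-sided permutation within groups, p = 0.602, adjusted p = 0.837 over the 3 pairs) and Spearman's rho of -0.23 (exact permutation p = 0.492, adjusted p = 0.786). Cortex and retina gave r of 0.07 (n = 14, exact permutation p = 0.837, adjusted p = 0.837) and rho of 0.09 (exact permutation p = 0.786). Hippocampus and retina gave r of 0.18 (n = 14, exact permutation p = 0.678, adjusted p = 0.837) and rho of 0.16 (exact permutation p = 0.645, adjusted p = 0.786). No pair of tissues showed a relation that passed the test. The median r over 13790 genes was 0.07, 0.05 and -0.04 for the same pairs, and 78.4%, 48.1% and 24.9% of genes had a higher r than Zbtb16.

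Leaving out the 2 animals farthest from the median of the first tissue gave r of -0.26, -0.22 and 0.21. Measured from the mean of all libraries of the group, animals were on the same side in 3 of 13, 6 of 14 and 7 of 14 cases. Of the 13 animals with all 3 tissues, only vehicle male 963 lay above its group mean in each (by 0.13, 0.18 and 0.08 log2 units), and 0 lay below in each. Between cortex and hippocampus tamoxifen male 959 went furthest apart, 0.09 above its group mean in the cortex and -0.47 from it in the hippocampus, and without it the cortex and hippocampus gave r of 0.29. Retinal deviations ran from -0.59 in male 962 to 0.48 in male 961, wider than the cortical range of -0.16 to 0.13.

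**Figure D2:**
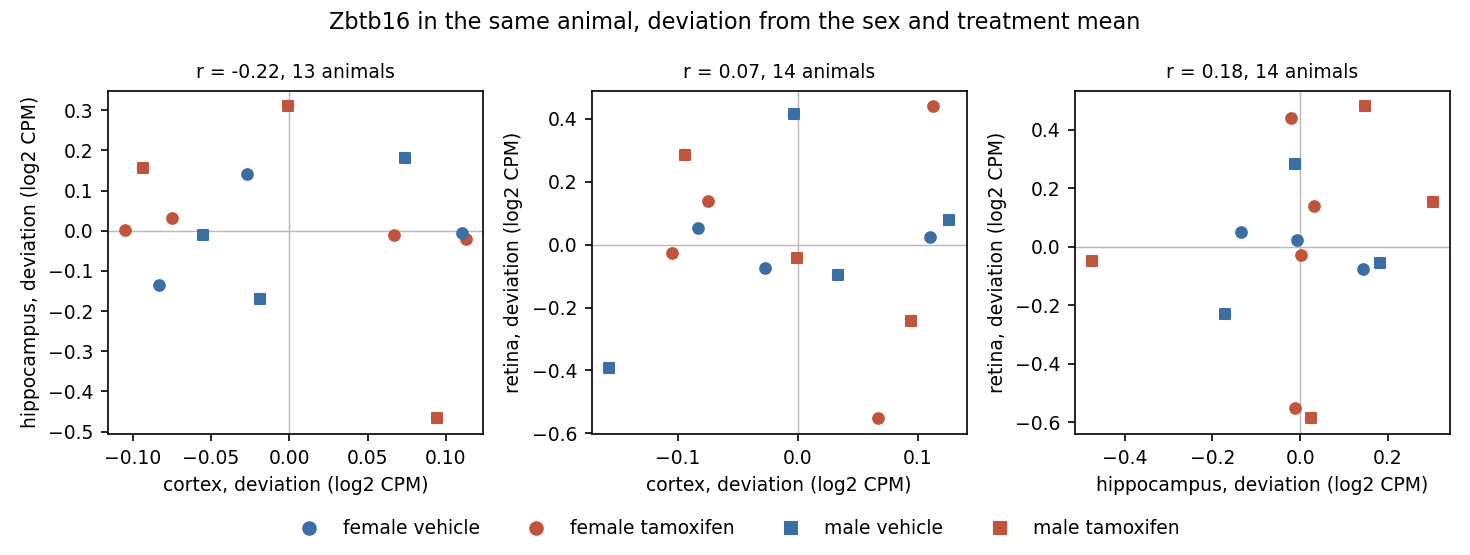
Deviation of Zbtb16 from its sex and treatment mean (log2 CPM, means over the animals shown) in the same animal, for cortex and hippocampus, cortex and retina, and hippocampus and retina. Each point is an animal, and the points follow no line, with r of -0.22, 0.07 and 0.18.

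Within the treatment arms r was taken without centring by sex, and animals were permuted over both sexes. A difference between the sexes therefore enters r together with any animal effect. Vehicle males had a higher mean CPM than vehicle females in the cortex (69.8 against 60.1), the hippocampus (102 against 93.9) and the retina (10.6 against 7.88). In vehicle animals r was positive for all 3 pairs. It was 0.54 for cortex and hippocampus (n = 6, exact permutation p = 0.265), 0.72 for cortex and retina (n = 7, exact permutation p = 0.0669) and 0.38 for hippocampus and retina (n = 6, exact permutation p = 0.451). Spearman's rho was 0.49, 0.68 and 0.14 (exact permutation p = 0.356, 0.110 and 0.803). In tamoxifen animals r was -0.42 (n = 7, exact permutation p = 0.374), 0.11 (n = 7, exact permutation p = 0.833) and 0.21 (n = 8, exact permutation p = 0.646), with rho of -0.50, 0.36 and 0.19 (exact permutation p = 0.267, 0.444 and 0.665). None passed after adjustment over these 6 relations (lowest adjusted p = 0.401, exact permutation), and the difference between the arms was not tested. Without the 2 animals farthest from the median, vehicle r was 0.70, 0.75 and 0.07, and tamoxifen r was -0.74, -0.17 and 0.58. These r rest on the few animals left in each arm and were not tested. The vehicle value for hippocampus and retina was lower than with all animals, and the tamoxifen value for cortex and retina changed sign. The other vehicle and tamoxifen values grew in size.

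Genes of the glucocorticoid response were described next, because Zbtb16 belongs to it. The list of 21 genes does not hold Zbtb16 itself. In the cortex 20 were tested and 4 passed, where 0.606% of all genes did. Fkbp5, a co-chaperone that holds back the glucocorticoid receptor, fell by 0.53 ± 0.08 on the log2 scale (SE, edgeR adjusted p = 0.00312), from 53.9 ± 7.85 CPM (SD, n = 7) to 37.4 ± 4.74 (SD, n = 7). The lipid droplet coat gene Plin4 fell by 1.13 ± 0.22 (adjusted p = 0.0217), from 6.01 ± 2.59 to 2.76 ± 0.57 CPM. The MAP kinase phosphatase gene Dusp1 rose by 0.49 ± 0.05 (adjusted p = 4.83e-05) and the clock gene Per1 by 0.29 ± 0.05 (adjusted p = 0.00999). Glucocorticoids raise all 4 of these genes in many cells. Here 2 were lower and 2 higher with tamoxifen, and a change in glucocorticoid signalling was not tested. The list's median was -0.06 against 0.01 over all genes tested. Dusp1 passed in all 20 alternative cortex fits, and Fkbp5 in 19, the exception being the fit without libraries rich in any marker list (adjusted p = 0.0504). Per1 did not pass without vehicle female 958 or in either fit without marker-rich libraries (adjusted p up to 0.352), nor did Plin4, which also failed without tamoxifen animals 954 or 961 (adjusted p up to 0.126).

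In the hippocampus 20 of the list were tested and 1 passed, where 0.0652% of all genes did. Hif3a, a hypoxia-inducible factor subunit, fell by 0.92 ± 0.13 (SE, edgeR adjusted p = 0.0145), from 9.34 ± 2.78 CPM (SD, n = 6) to 4.96 ± 1.09 (SD, n = 8). It did not pass without tamoxifen female 952, without vehicle female 957 or without the choroid plexus rich libraries (adjusted p up to 0.0601). In the retina 21 were tested and edgeR called 0, where 0.0474% of all genes were called. There 3 of the 21 had an unadjusted p under 0.05, against 1055 of all 14781 genes tested. DESeq2 called the same 3, Fkbp5, Plin4 and Hif3a, as lower. The list medians were -0.00 and -0.06 against 0.00 for all genes in both tissues.

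Placed side by side, 7 of the 20 genes tested in all tissues had negative values in each, and 6 had positive values in each. The share of all genes with the same sign in every tissue was not taken, so these counts are a description only. The 7 were Fkbp5, Plin4, Hif3a, Klf9, Cdkn1a, Map3k6 and Sult1a1. The 6 were Dusp1, Cebpd, Nfkbia, Ddit4, Errfi1 and Sgk1. Dusp1 stood at 0.49, 0.20 and 0.13 in cortex, hippocampus and retina, and Cebpd at 0.19, 0.38 and 0.38. Fkbp5 stood at -0.53, -0.23 and -0.27 in cortex, hippocampus and retina, Plin4 at -1.13, -1.09 and -0.93, and Hif3a at -0.56, -0.92 and -0.56. Klf9, Tsc22d3 and Sgk1 did not pass in any tissue. Klf9, a Krüppel-like factor, was at -0.09, -0.11 and -0.08, and Tsc22d3, which encodes the leucine zipper protein GILZ, at -0.11, -0.21 and 0.03. The kinase gene Sgk1 was at 0.12, 0.20 and 0.00. As Zbtb16 was chosen from this contrast, its size is not ranked against the list members.

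**Figure D3:**
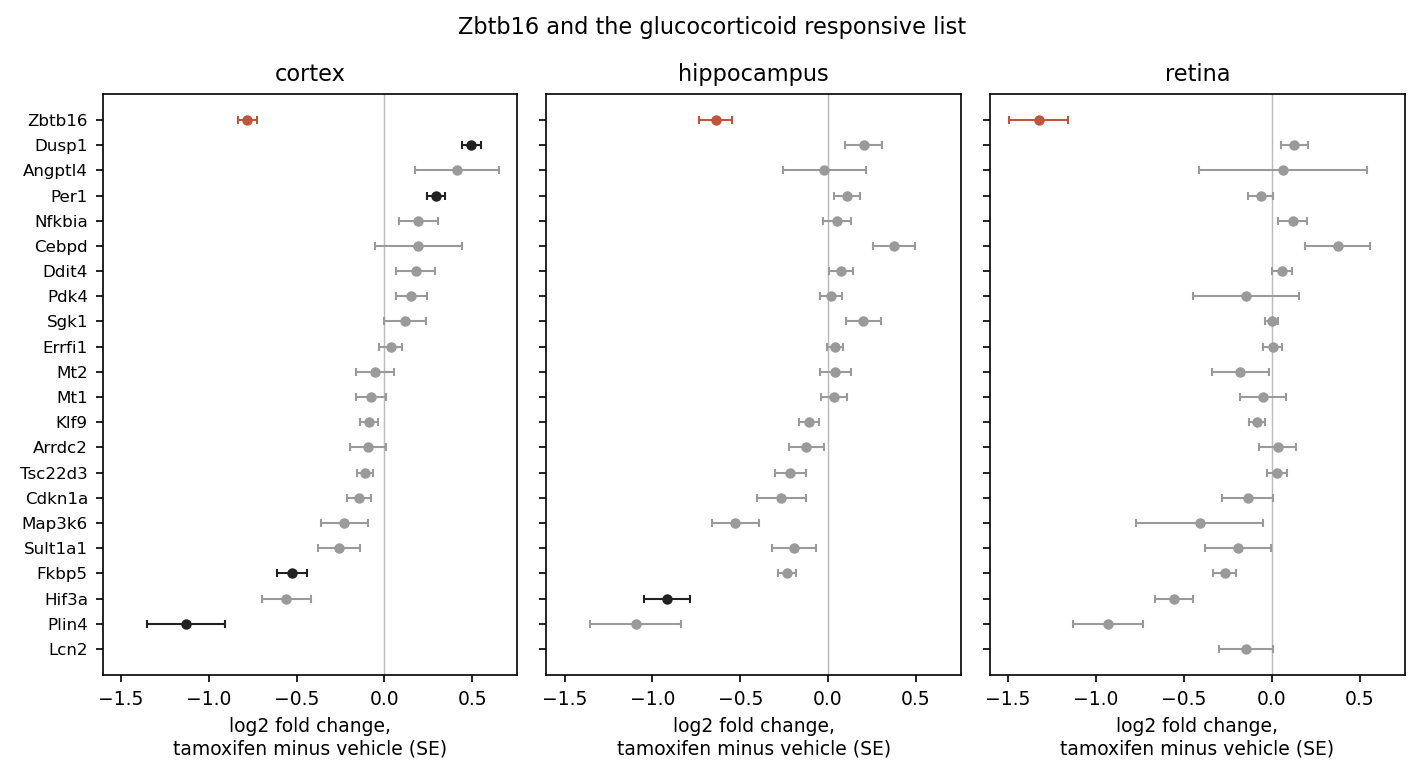
Log2 fold change of tamoxifen minus vehicle with its SE for Zbtb16 (red, chosen from this contrast) and the 21 glucocorticoid responsive genes in each tissue; black points passed the adjusted threshold and grey points did not, and Lcn2 was tested in the retina only. Fkbp5, Plin4 and Hif3a lie left of 0 in every tissue, Dusp1 and Cebpd lie right of 0, and most other members lie near 0.

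No receptor gene passed in any tissue. The glucocorticoid receptor gene Nr3c1 stood at 151 ± 9.36 CPM with vehicle and 150 ± 7.73 with tamoxifen in the cortex (SD, n = 7 each), with log2 differences of -0.01 ± 0.04, 0.09 ± 0.07 and -0.06 ± 0.04 in cortex, hippocampus and retina (SE). The mineralocorticoid receptor gene Nr3c2 was at -0.08, 0.09 and -0.00, and the oestrogen receptor gene Esr1, whose protein binds tamoxifen's active forms, at -0.10 ± 0.26, -0.28 ± 0.19 and 0.44 ± 0.17. Over the 10, 11 and 10 receptor and coactivator genes tested, edgeR called 0 in each tissue, with 1, 1 and 4 at an unadjusted p under 0.05, and DESeq2 called 0 in each. Over all genes tested, 1379 of 14680 in the cortex, 1203 of 15339 in the hippocampus and 1055 of 14781 in the retina had such a p. These all-gene counts also apply to the lists that follow.

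Of the partners through which Zbtb16 acts, the corepressor gene Runx1t1 was at -0.28 ± 0.07 in the cortex (SE), which did not pass by edgeR (adjusted p = 0.0698) and was called as lower by DESeq2. Runx1t1 was at -0.18 ± 0.06 in the hippocampus and -0.05 ± 0.06 in the retina. Hdac4, a histone deacetylase that Zbtb16 binds, was at -0.17 ± 0.07, -0.31 ± 0.09 and 0.06 ± 0.09 in cortex, hippocampus and retina. It did not pass in any of them (edgeR adjusted p = 0.417, 0.324 and 0.958). Sin3a was at 0.02, -0.12 and -0.00 in the same order. The count of partners called in the cortex is not reported here. In the hippocampus and the retina edgeR called 0 of 13 partners, with 3 and 0 at an unadjusted p under 0.05, and DESeq2 called 0 in both. Over 6 genes reported as Zbtb16 targets in other cells edgeR and DESeq2 called 0 in each tissue, with 0, 2 and 0 at an unadjusted p under 0.05. The 2 were Id2, an inhibitor of basic helix-loop-helix factors (0.11 ± 0.05), and Pik3r1, a regulatory subunit of the PI3 kinase (-0.13 ± 0.05).

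The other BTB zinc finger genes, Zbtb16's own family, were tested for 41 cortex, 40 hippocampus and 41 retina members. EdgeR called 0 in each tissue, with 4, 2 and 3 at an unadjusted p under 0.05, about the all-gene shares given above. DESeq2 called 0, 1 and 0. The 1 was Zbtb40 in the hippocampus. Zbtb40 had edgeR log2 differences of -0.31 ± 0.09, -0.43 ± 0.09 and -0.22 ± 0.08 (SE; adjusted p = 0.190, 0.116 and 0.542). The family's medians were 0.00, -0.01 and -0.01, at the all-gene medians of 0.01, 0.00 and 0.00. Zbtb20, a family member known for its part in building the hippocampus, was at -0.02, -0.16 and -0.06. Zbtb32, a repressor in lymphocytes, was at 0.51 ± 0.25 in the cortex and -0.63 ± 0.43 in the retina and was not tested in the hippocampus.

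Clock genes and immediate early genes, the latter switched on fast by stimulation, were counted in the same libraries, where the shares of all genes called were 0.606%, 0.0652% and 0.0474%. Of 15 clock genes in the cortex Per1 rose, and Per2 (-0.49 ± 0.06, edgeR adjusted p = 0.000288) and Bhlhe40 (-0.24 ± 0.05, adjusted p = 0.0348) fell, the last call holding in 8 of 20 alternative fits. In the hippocampus and retina edgeR called 0 of 15, with 5 and 3 at an unadjusted p under 0.05. Over all genes tested these were 1203 of 15339 and 1055 of 14781. DESeq2 called 1 clock gene (Per2) and 0 in the same order. Of the immediate early genes 10 of 16 rose and 1 fell in the cortex, 2 of 16 rose in the hippocampus (Arc and Fos) and 1 of 15 rose in the retina (Egr1). In the cortex Fos, an AP-1 subunit, rose by 0.73 ± 0.06 (adjusted p = 4.21e-07), and Homer1, a postsynaptic scaffold gene, was the one that fell, by 0.31 ± 0.06 (adjusted p = 0.0147). In the cortex Fos, Egr2, Arc, Nr4a1, Junb and Btg2 passed in all 20 alternative fits, Egr1 in 19, Ier2 in 18 and Homer1 in 16, while Egr4 passed in 7 and Dusp6 in 6. Fos passed in 8 of 18 in the hippocampus, Arc in 17 of 18 there, and Egr1 in 11 of 20 in the retina.

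Likeness to Zbtb16 was measured as Pearson's r of log2 CPM over 43 libraries among 12722 named genes tested in all tissues. With each tissue centred on its own mean, differences between the arms enter r, and the retina weighs most since Zbtb16 varied most there. The closest genes were Mxi1, an antagonist of Myc (r = 0.79), the zinc finger gene Hivep2 (0.75), Pfkfb3, which encodes a regulator of glycolysis (0.74), Zhx3, a zinc finger and homeobox repressor (0.74), Cables1, a binder of cyclin-dependent kinases (0.73), and the ETS factor Etv5 (0.72). All 6 were positive within each tissue. Zhx3 was the most even, at 0.80 for cortex, 0.83 for hippocampus and 0.75 for retina, and Mxi1 the least, at 0.49, 0.69 and 0.90. Their tamoxifen differences were negative in every tissue, from -0.07 ± 0.06 for Etv5 in the hippocampus to -0.62 ± 0.13 for Cables1 in the retina (SE). As these genes were picked by an r into which the arms enter, that sign follows largely from the choice and is no separate result.

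The most opposed genes were Fos (r = -0.72), the zinc finger factor Egr1 (-0.71), the Wnt ligand gene Wnt7b (-0.68) and D4Wsu53e (-0.67). Fos was at -0.94 within the cortex, -0.74 within the hippocampus and -0.74 within the retina. The arms enter these values as well, so the opposed sign follows largely from the choice and is no separate result. Over 15 immediate early genes the median r was -0.42 with the tissue centred. It was 0.12 with each sex and treatment group centred as well. Wnt7b was at -0.52, -0.09 and -0.80. Its tamoxifen difference was 6.17 ± 0.66 in the retina, against 0.19 ± 0.09 in the cortex and 0.02 ± 0.06 in the hippocampus (SE, log2). Its place among the most opposed genes therefore rests mostly on the retina. Over 13789 genes the median r was -0.01 and the 99th percentile 0.50.

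With each sex and treatment group centred as well, the treatment no longer enters and the order changed. Rab11fip4, a Rab11 effector (r = 0.69), Slitrk4, a synaptic adhesion gene (0.68), the potassium channel gene Kcnh7 (0.67), Tbck (0.67) and the neuronal zinc finger gene Myt1l (0.66) were among the first. Mettl23 (-0.62), Vav1, an exchange factor of blood cells (-0.61), Coq4, for coenzyme Q synthesis (-0.60) and Ptgs1, a cyclooxygenase gene (-0.59) came last. These 5 were closest in the hippocampus and retina, and in the cortex Myt1l was at 0.01 and Tbck at 0.12. Slitrk4 and Kcnh7 kept r of 0.65 and 0.59 in the cortex. The 99th percentile over all genes was 0.53. Of the glucocorticoid list, 11 of 20 had a positive r with the tissue centred (median 0.16), down to -0.54 for Dusp1, -0.33 for Nfkbia and -0.31 for Cebpd. With the groups centred 16 of 20 had a positive r (median 0.08), and Dusp1, Nfkbia and Cebpd were at -0.08, 0.12 and 0.07. The medians over all genes were -0.01 and 0.00 in the same order. At the list's upper end, r with the tissue centred was 0.64 for Plin4, 0.63 for Fkbp5 and 0.62 for Hif3a. With the groups centred it was 0.01, 0.11 and 0.26. Klf9 had 0.51 with the tissue centred and 0.53 with the groups centred.

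**Figure D4:**
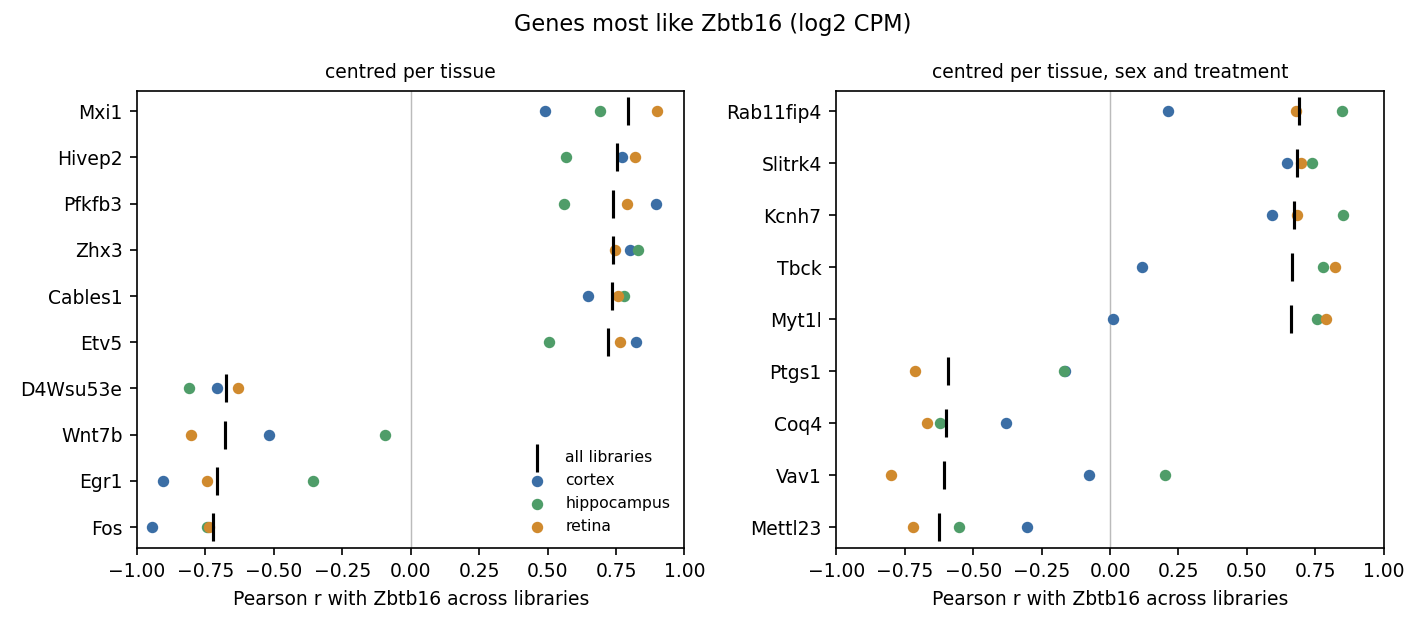
Named genes with the highest and lowest Pearson r with Zbtb16 over 43 libraries (black bars), with r inside each tissue as coloured points; left, log2 CPM centred per tissue, right, centred per tissue, sex and treatment. Fos and Egr1 are most opposed at left (-0.72 and -0.71), and at right the cortex points of Myt1l and Tbck fall near 0.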

How the data were processed

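RNA-seq was done on cortex, hippocampus and retina; RNA was extracted with AllPrep kits and libraries made with a TruSeq RNA kit, per the labels' protocols. The authors deposited 1 table per tissue with raw estimated counts per gene (expected counts with fractional parts), per the file headers. GRCm38 (mm10) and DESeq are named without a role, per the submitters' processing notes. The sources used here do not give the aligner, the counter or whether strand was used, so genes that overlap Zbtb16 or lie antisense to it could share its reads.

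Counts were rounded. Low genes were removed by filterByExpr of edgeR (minimum count 10, minimum total 15) and libraries scaled by TMM and fitted per tissue with 1 mean per sex and treatment (edgeR 4.0.16, R 4.3.3, quasi-likelihood, Benjamini-Hochberg over all genes, threshold 0.05). Tissues were compared in a joint fit of the vehicle libraries. DESeq2 1.42.0, other scaling, no filter, leaving out each animal and leaving out marker-rich libraries were alternatives. The fits and the permutation test were tested on simulated data.

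Replicates are separate animals, and the animal number in the titles pairs the tissues. Among 57 replicate pairs the lowest chi-square per gene was 3.05, so all were counted separately. Of 221 listed genes, 220 were matched. Named genes were those always listed, up to 4 per list with the smallest p, and the 6 most and 4 least alike; some are not reported here. The gene and the lists were chosen with earlier results of these data known. A hippocampus of animal 965 was not used here. Depth limits precision most in the retina.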

Additional observations from a re-analysis of the deposited data

How the results depend on the processing

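The sex difference and the tissue differences of Zbtb16 kept their direction and their side of the threshold under every alternative run, and the tamoxifen difference, which has no test, kept its direction. With the animal as a replicate block the tissue differences were 0.59 ± 0.07 for hippocampus minus cortex, -2.90 ± 0.08 for retina minus cortex and -3.49 ± 0.08 for retina minus hippocampus (SE, log2), and the block changed no call. Leaving out 1 animal moved the sex difference between 0.13 and 0.19 in the cortex, 0.02 and 0.15 in the hippocampus and 0.24 and 0.41 in the retina. It moved the difference of the tamoxifen effect between the sexes from -0.18 to -0.07, from -0.17 to 0.061 and from -0.37 to -0.01, and without lens-rich libraries the retinal value was 0.14 (0.43 without libraries rich in any marker list). The same-animal r ran from -0.36 to 0.29 for cortex and hippocampus, from -0.23 to 0.28 for cortex and retina and from 0.07 to 0.26 for hippocampus and retina with 1 animal left out. Without marker-rich libraries the last was -0.076. In vehicle animals alone the first was 0.54, a value not centred by sex, so the difference between the sexes enters it. Genes called with tamoxifen numbered 89, 10 and 7 in cortex, hippocampus and retina, against 176, 63 and 59 by DESeq2, and 33, 0 and 8 without choroid plexus or lens rich libraries. Without libraries rich in any list, an alternative chosen after seeing the data, they were 17 in the cortex and 0 in the retina. The 0s are edgeR counts, and the full fits had 1203 (hippocampus) and 1055 (retina) genes at an unadjusted p under 0.05. Leaving out 1 animal gave 31 to 97, 2 to 11 and 4 to 16 genes, and no filter gave 15 in the retina. Glucocorticoid list calls were 4, 1 and 0. They were 2 in the cortex and 0 in the hippocampus without marker-rich libraries, 1 in the cortex without libraries rich in any list, 2 in the hippocampus and 3 in the retina by DESeq2, and 2 to 5, 0 to 1 and 0 with 1 animal left out. Causes were not tested. The authors' normalized columns were not used here, so a fit on them was not run. Retinal Zbtb16 rests on 22 to 201 estimated reads per library, which limits what its sex and animal comparisons can show.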
